A study of Mus musculus with 12 samples.

Results

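Messenger RNA levels of 9 tight junction genes were followed in NU1 cells: Cldn1, Cldn3, Cldn4, Cldn7, Cldn8, Cldn12, Cldn23, Ocln and Tjp1. They were taken by symbol from a table of 23337 gene symbols, and all 9 were found and passed the filter on low counts that left 12406 genes for testing. NU1 is a line of normal mouse urothelial cells, the lining of the bladder, that arose spontaneously on repeated passaging. The 12 libraries formed 4 groups of 3, and each group had 1 library from each of experiments 5, 7 and 9, which the labels number as batches 3, 1 and 2. Proliferating control cells carried the non-targeting hairpin shNT and proliferating knockdown cells carried sh4, a hairpin against Stag2, which encodes a subunit of the cohesin ring. Quiescent control and quiescent knockdown cells carried the same hairpins and were labelled day 7: they had been grown to confluence in the same complete medium and then kept in it with 1 µM rosiglitazone, an agonist of the nuclear receptor PPAR gamma, and 0.5 µM erlotinib, an inhibitor of the EGF receptor kinase. Confluence, both drugs and time in culture changed together, so their shares in a difference between proliferating and quiescent cells cannot be told apart. With 1 hairpin against Stag2, loss of Stag2 and any other effect of that hairpin cannot be told apart either.

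Tight junctions seal the space between neighbouring epithelial cells at the apical end of their lateral membranes. Claudins are the multi-pass membrane proteins that polymerise into the junctional strands and set which ions can cross them, occludin (Ocln) is a second kind of strand protein, and ZO-1, the product of Tjp1, is the scaffold on the inner side of the membrane that holds claudin tails and links them to actin. The urothelium is among the tightest epithelia known, and activation of PPAR gamma with the EGF receptor blocked is an established way to make cultured human urothelial cells differentiate and form tight junctions.

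Library totals ran from 14524429 to 21987539 counts. Levels are given as CPM, the counts of a gene per 1000000 counts of its library, with library totals scaled by the trimmed mean of M values, and tests are edgeR's quasi-likelihood F test with Benjamini-Hochberg adjustment over all 12406 genes, with an adjusted p under 0.05 taken as a call. The labels do not say that the experiments were separate derivations of the cells, so p-values measure the spread between these libraries. Stag2 lay at 139, 145 and 113 CPM in proliferating control cells (experiments 5, 7 and 9) and at 33.3, 24.9 and 24.6 CPM in proliferating knockdown cells. In quiescent cells it lay at 128, 126 and 107 CPM with shNT and at 9.43, 15.3 and 11.7 CPM with sh4, so every library matched the hairpin of its label. Stag2 does not check the labels of state and experiment. Of 14 urothelial and epithelial markers, Trp63 was at 0 in all 12 libraries, the uroplakins Upk1b, Upk2 and Upk3a had group means of at most 0.788, 0.857 and 0.0151 CPM, and Upk1a means of 1.14 to 2.55 CPM, whereas Krt8 had group means of 4600 to 8909 CPM. The basal keratins Krt5 and Krt14 had group means of at most 4.62 and 9.08 CPM. Krt20, a keratin of superficial urothelial cells, was abundant, with group means of 623 to 1537 CPM, and was lower in quiescent cells by log2 differences of -0.97 in control and -0.95 in knockdown cells (edgeR adjusted p = 0.0039 and 0.0050). The list was thus mixed, with simple-epithelial keratins and Krt20 abundant and uroplakins, basal keratins and Trp63 low or at 0. Summed markers of other cell types stayed low in every library, at 0.345 to 2.27 CPM for fibroblasts, 0.173 to 0.716 CPM for smooth muscle, 0 to 0.239 CPM for endothelium and 0.0577 to 0.762 CPM for immune cells. The summed urothelial and epithelial markers were 13264 to 18847 CPM in proliferating control, 15888 to 17621 CPM in proliferating knockdown, 12875 to 19396 CPM in quiescent control and 22024 to 23471 CPM in quiescent knockdown libraries. In such bulk RNA, fewer cells that express a gene and less of its RNA per cell cannot be told apart.

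The claudin genes called higher in quiescent cells in the fit reported, Cldn3 and Cldn4, are neighbours on mouse chromosome 5. They were not the only ones to rise. Cldn23, on chromosome 8, had a larger log2 difference in control cells (1.46) but missed the threshold (edgeR adjusted p = 0.0511). It passed with experiment as a block in the fit (edgeR adjusted p = 0.00173). In the mm10 build, with GENCODE M21 models, Cldn4 is at chr5:134945119-134946934 on the minus strand and Cldn3 at chr5:134986214-134987472 on the plus strand, 39279 bp apart. Each is a gene of 1 exon, so counted reads lie in the exon that holds its coding sequence and UTRs. RefSeq (GRCm38.p6, the same build) gave start-site windows of 250 bases before to 50 bases after the start for 7 of the 9 genes, 11 windows in all, and no entry for Cldn8 and Cldn23. The windows of Cldn3 and Cldn4 are shown because both genes were called. Of the 2 windows of Cldn7, 1 is shown because it holds the same motif and Cldn7 did not pass the test. Capitals mark matches, on either strand, to CAGGTG (an E-box bound by Snail and Zeb repressors) and AGGTCA (a nuclear receptor half-site). They are written 5′ to 3′ on the strand of the gene, at chr5:134985964-134986263 (plus strand) for Cldn3, chr5:134946885-134947184 (minus strand) for Cldn4 and chr11:69965171-69965470 (plus strand) for Cldn7.
Cldn3: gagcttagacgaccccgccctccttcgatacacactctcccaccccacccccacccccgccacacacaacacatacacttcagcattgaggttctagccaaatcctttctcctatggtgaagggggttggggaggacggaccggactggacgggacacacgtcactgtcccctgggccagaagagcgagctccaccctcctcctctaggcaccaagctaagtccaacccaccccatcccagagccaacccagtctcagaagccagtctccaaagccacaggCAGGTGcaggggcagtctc
Cldn4: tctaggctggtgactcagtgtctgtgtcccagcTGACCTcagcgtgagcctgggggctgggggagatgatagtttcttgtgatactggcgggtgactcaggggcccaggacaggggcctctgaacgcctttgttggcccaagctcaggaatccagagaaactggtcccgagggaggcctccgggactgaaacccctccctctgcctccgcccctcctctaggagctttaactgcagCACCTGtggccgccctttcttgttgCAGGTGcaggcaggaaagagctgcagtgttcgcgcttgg
Cldn7: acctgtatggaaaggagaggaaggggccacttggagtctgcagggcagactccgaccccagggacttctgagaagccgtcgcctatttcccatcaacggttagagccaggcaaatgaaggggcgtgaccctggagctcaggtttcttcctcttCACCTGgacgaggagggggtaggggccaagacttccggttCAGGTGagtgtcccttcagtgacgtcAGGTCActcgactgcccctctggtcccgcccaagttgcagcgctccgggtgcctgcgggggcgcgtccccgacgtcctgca

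Counting from 1 at the start site of each window, the first base of the E-box match was at position 32 in Cldn3. In Cldn4, E-box matches began at -14, on the strand opposite the gene, and at 12, and a half-site at -217. In the Cldn7 window shown, E-box matches began at -97 and -57 and a half-site at -31. That window is set on a start site inside the gene. The window at the gene start of Cldn7, chr11:69964529-69964828, held 0 E-box matches and a half-site at -40. An E-box match was present in 5 of the 11 windows, belonging to 4 of 7 genes (Cldn3, Cldn4, Cldn7 and Ocln), against 20.2% of 32851 windows of the same length over all genes. That percentage counts windows and not genes. The 11 windows are not separate sequences: the 2 of Ocln overlap and share an E-box match, and the 3 of Cldn12 overlap. The half-site was in 4 windows of 3 genes, against 16.3% of all windows. A GC box, GGGGCGGGG, occurred in 2 windows, of Ocln and Tjp1 (11.4% of all windows), and the grainyhead-like motif AACCGGTT in 0 of 11 windows (0.146% of all windows). All motifs were searched on both strands and no match overlapped a match to another motif. A match is a run of letters and not a measured binding site.

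Cldn4 and Cldn3, which encode barrier-forming claudins that also serve as receptors for an enterotoxin of Clostridium perfringens, were higher in quiescent than in proliferating cells with either hairpin. Cldn4 stood at 988, 576 and 755 CPM in the proliferating control libraries of experiments 5, 7 and 9 and at 1689, 1520 and 2334 CPM in the quiescent ones. All 3 quiescent libraries lay above all 3 proliferating ones. The difference was 1.26 on the log2 scale (SE 0.25, 2.39-fold, n = 3 per group, edgeR adjusted p = 0.00544). It was 0.77, 1.40 and 1.63 within experiments 5, 7 and 9. In knockdown cells Cldn4 went from 1021, 740 and 1128 CPM to 2205, 2272 and 3080 CPM, again without overlap, a log2 difference of 1.39 (SE 0.25, 2.61-fold, edgeR adjusted p = 0.00372).

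Cldn3 stood at 359, 237 and 273 CPM in proliferating control libraries and at 435, 428 and 620 CPM in quiescent control libraries. The groups did not overlap, and the step was smallest in experiment 5, at 0.28 on the log2 scale, against 0.85 and 1.18 in experiments 7 and 9. The fitted log2 difference was 0.77 (SE 0.20, 1.71-fold, n = 3 per group, edgeR adjusted p = 0.0193). With sh4 the 3 values were 352, 273 and 383 CPM in proliferating and 551, 539 and 611 CPM in quiescent cells. Here too the quiescent libraries were all higher, by 0.75 on the log2 scale (SE 0.20, 1.69-fold, edgeR adjusted p = 0.0230). The Cldn3 call was less secure than that of Cldn4: in control cells edgeR's adjusted p was 0.0828 without the proliferating library of experiment 7, 0.0665 without that of experiment 9 and 0.0751 without the quiescent library of experiment 9. In knockdown cells it was 0.0920 without the proliferating library of experiment 7, and 0.0560 and 0.0831 without the quiescent libraries of experiments 5 and 9. Fitted on the 6 control libraries alone, the quiescence difference of Cldn3 had an edgeR adjusted p of 0.0603.

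**Figure D1:**
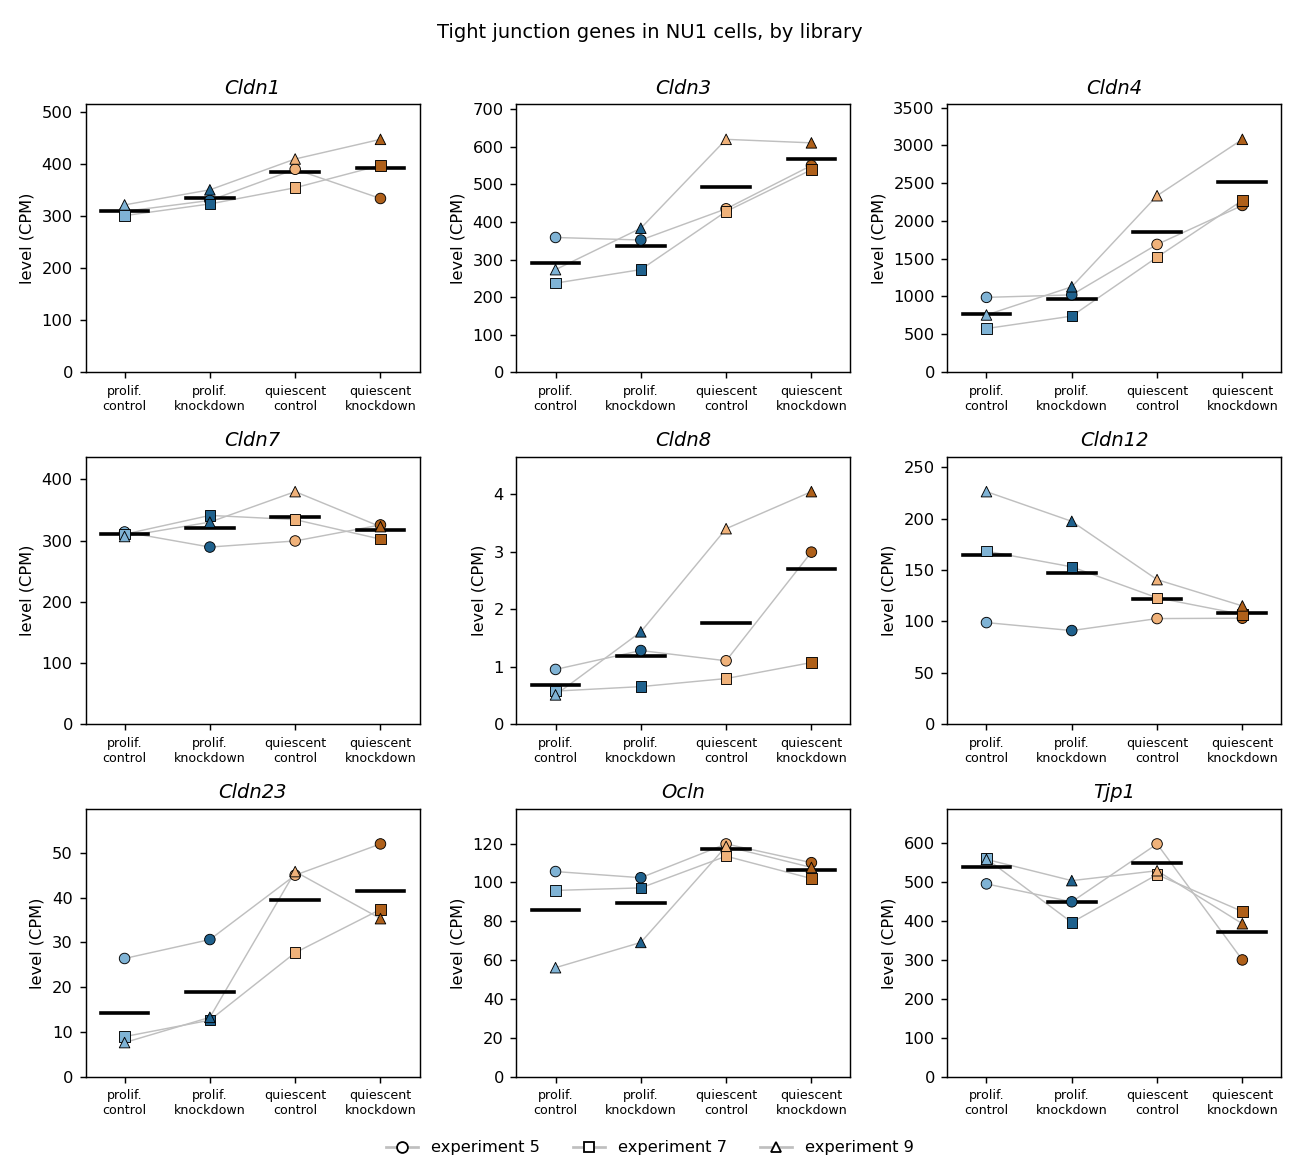
Level of each of the 9 genes in CPM (linear axes that differ between panels) in every library, by group, with a marker shape for each experiment, grey lines that join libraries of an experiment and a bar for the group mean. Cldn4 and Cldn3 sit higher in all quiescent than in all proliferating libraries with either hairpin, and the group mean of Tjp1 is lowest in quiescent knockdown cells (300 to 425 CPM).

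Cldn23, a claudin described mainly in intestinal epithelium, showed the largest step of the 9 genes in control cells but spread widely between experiments. In proliferating control cells it stood at 26.4, 8.95 and 7.61 CPM and in quiescent control cells at 45.1, 27.7 and 45.9 CPM. The groups did not overlap, although experiment 5 was the highest of the proliferating libraries in both hairpin groups. The log2 difference was 1.46 (SE 0.48, 2.76-fold) and missed the threshold (edgeR adjusted p = 0.0511). With experiment as a block it passed (adjusted p = 0.00173), and without the proliferating control library of experiment 5 the difference was 2.25 (adjusted p = 0.00435). Leaving out the proliferating knockdown library of experiment 5, which enters only through the shared spread, gave an adjusted p of 0.0339. In knockdown cells Cldn23 went from 30.7, 12.6 and 13.3 CPM to 52.0, 37.4 and 35.3 CPM. Again the groups did not overlap, and the log2 difference of 1.14 (SE 0.47, edgeR adjusted p = 0.117) passed with the block (adjusted p = 0.00704). Without the proliferating knockdown library of experiment 5 that difference was 1.68 (adjusted p = 0.0404), and without the proliferating control library of experiment 5 it was 1.14 (adjusted p = 0.0397).

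Cldn1, whose product is needed for the barrier of the skin, stood at 309, 301 and 321 CPM in proliferating and 390, 354 and 409 CPM in quiescent control cells. The quiescent libraries were all higher by a small margin, 0.31 on the log2 scale (SE 0.12, edgeR adjusted p = 0.0993), which passed with experiment as a block (adjusted p = 0.0456). With sh4 its values were 330, 323 and 350 CPM in proliferating and 334, 397 and 447 CPM in quiescent cells, which overlapped, with a log2 difference of 0.23 (SE 0.12, adjusted p = 0.215).

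Cldn7, which encodes a claudin that binds the adhesion protein EpCAM, was the steadiest of the 9 genes. Its 12 values ran from 289 CPM in proliferating knockdown cells of experiment 5 to 380 CPM in quiescent control cells of experiment 9, with overlapping groups. The quiescence difference was 0.12 on the log2 scale in control cells (SE 0.12, edgeR adjusted p = 0.488) and -0.02 in knockdown cells (SE 0.12, adjusted p = 0.944).

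Cldn12, an atypical claudin without the tail motif that binds PDZ domains, differed more between experiments than between groups. It stood at 98.9, 168 and 226 CPM in proliferating control and at 103, 123 and 141 CPM in quiescent control cells. Experiment 5 was thus level between the states, and experiments 7 and 9 were lower in quiescent cells, by log2 differences of -0.45 and -0.68. The fitted log2 difference of -0.43 (SE 0.30, edgeR adjusted p = 0.337) did not pass, and it moved to -0.69 without the proliferating control library of experiment 5 and to -0.13 without that of experiment 9. In knockdown cells Cldn12 showed 91.2, 153 and 197 CPM and then 103, 107 and 115 CPM, with a log2 difference of -0.44 (SE 0.30, adjusted p = 0.335).

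Cldn8, which encodes a barrier claudin of the renal collecting duct, was close to the detection limit, with 9 to 69 counts per library. It stood at 0.954, 0.577 and 0.511 CPM in proliferating control and at 1.10, 0.795 and 3.40 CPM in quiescent control cells. Only experiment 9 was clearly higher, and the groups overlapped. The log2 difference of 1.37 (SE 0.65, edgeR adjusted p = 0.159) became 0.47 without the quiescent control library of experiment 9. With sh4 its levels were 1.28, 0.655 and 1.61 CPM in proliferating and 2.99, 1.07 and 4.04 CPM in quiescent cells, which also overlapped, a log2 difference of 1.19 (SE 0.63, adjusted p = 0.211).

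Ocln stood at 106, 95.9 and 56.1 CPM in proliferating control and 120, 113 and 119 CPM in quiescent control cells. The quiescent libraries were all higher, mostly through the low proliferating library of experiment 9. The log2 difference was 0.45 (SE 0.21, edgeR adjusted p = 0.152), and with experiment as a block the adjusted p was 0.0483. In knockdown cells the levels of 102, 97.2 and 69.1 CPM and of 110, 102 and 108 CPM overlapped, with a log2 difference of 0.25 (SE 0.21, adjusted p = 0.437).

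Tjp1 stood at 495, 560 and 558 CPM in proliferating control cells and at 598, 519 and 529 CPM in quiescent control cells, which overlapped, with a log2 difference of 0.03 (SE 0.15, edgeR adjusted p = 0.913). In knockdown cells its values of 449, 396 and 504 CPM in proliferating and 300, 425 and 393 CPM in quiescent libraries overlapped as well, with a log2 difference of -0.27 (SE 0.15, adjusted p = 0.230).

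Counted together, 2 of the 9 genes were called higher and 0 lower in quiescent control cells, while 8.33% of all genes tested were called higher and 20.0% were called in either direction. With experiment as a block 5 of 9 were called higher (Cldn1, Cldn3, Cldn4, Cldn23 and Ocln), when 16.8% of all genes were called higher and 35.3% called in all. In quiescent knockdown cells again 2 of 9 were called higher and 0 lower, against 7.59% of all genes called higher and 18.4% called at all. With the block 3 were called higher (Cldn3, Cldn4 and Cldn23), against 15.9% higher and 33.0% in all. The median log2 difference of the 9 genes was 0.45 in control and 0.25 in knockdown cells, when that of all genes tested was 0.00 in each.

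**Figure D2:**
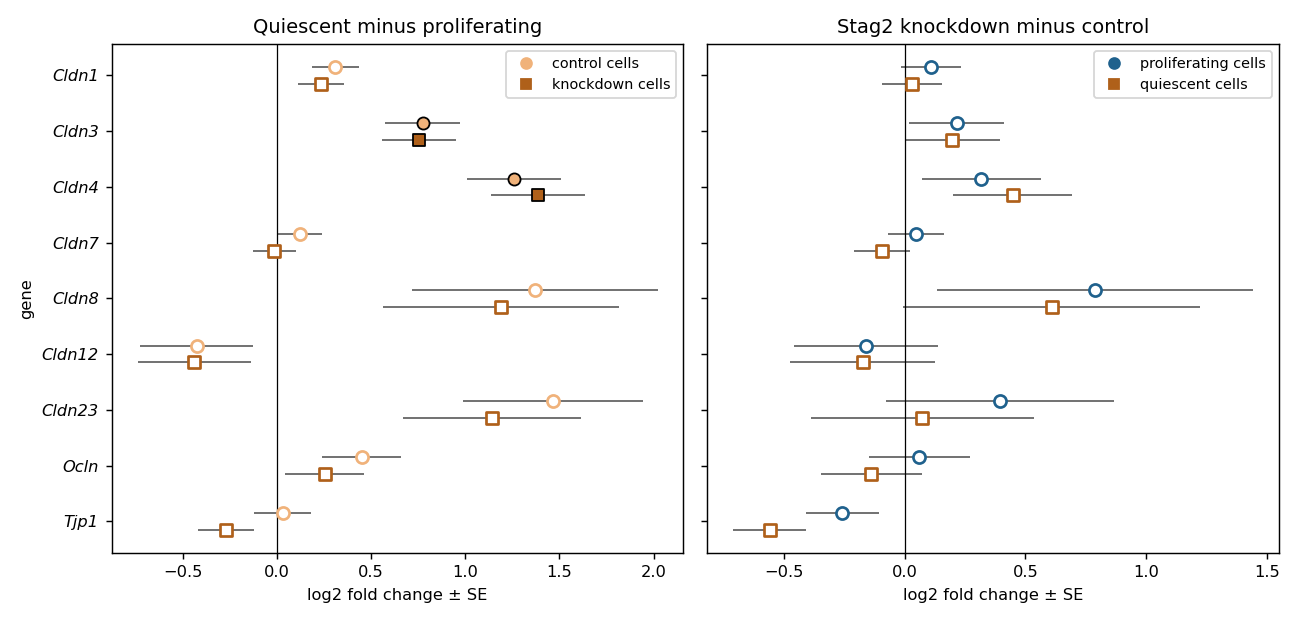
Log2 difference of each of the 9 genes (fitted value, horizontal bar ± 1 SE) for quiescence and for knockdown, with filled points for an edgeR adjusted p under 0.05. The filled points are Cldn3 and Cldn4 for quiescence with either hairpin, and no knockdown difference is filled.

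By gene structure, the 9 genes were split after their values had been seen. In GENCODE M21 the exons of Cldn3, Cldn4, Cldn8 and Cldn23, merged over all transcripts of a gene, form 1 block each. Cldn23 has 2 transcripts, so 1 block need not mean 1 exon. Cldn8 lies at chr16:88560828-88563183 and Cldn23 at chr8:35824712-35826559, both on the minus strand. The median log2 quiescence difference of these 4 genes was 1.31 in control and 1.17 in knockdown cells, against 0.12 and -0.02 for the other 5, which have more blocks. Of the 4 genes with 1 block 2 were called, and the value of Cldn8 in control cells rests on 1 library, as given above. Over all genes, the 239 tested genes with 1 exon block had medians of 0.09 and 0.13. Of them 8.79% and 8.37% were called higher, beside 8.63% and 7.76% of 10635 genes with more blocks. The other 5 of the 9 genes lie at chr16:26356642-26371841 (Cldn1), chr11:69964779-69967885 (Cldn7, plus strand), chr5:5489537-5514958 (Cldn12), chr13:100496507-100552718 (Ocln) and chr7:65296165-65527781 (Tjp1), all on the minus strand except Cldn7. None of the 50-base stretches of the 9 genes' transcripts occurred in a transcript of another gene. The exon of Cldn3 is overlapped by Wbscr25, which had 1 to 15 counts per library. Of 13 other protein-coding genes within 200 kb of the Cldn3 and Cldn4 pair, 9 were tested. In control cells 2 of these were called higher in quiescence, Vps37d (log2 difference 1.59, edgeR adjusted p = 0.0109) and Bcl7b (0.53, adjusted p = 0.0300), and 1 lower, Baz1b (-0.62, adjusted p = 0.0239), beside 8.33% of all genes called higher and 20.0% called in all. In knockdown cells Vps37d (1.98, adjusted p = 0.0035) and Bcl7b (0.56) were called higher and 0 genes lower, beside 7.59% and 18.4% of all genes.

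Knockdown of Stag2 moved none of the 9 genes past the threshold in proliferating cells. Log2 differences between knockdown and control ran from -0.26 (Tjp1) to 0.79 (Cldn8), with 0 calls by edgeR with or without the block, 0 by DESeq2 and 0 genes at an unadjusted p under 0.05. Over all genes 0.0242% were called, with or without the block. Cldn1 was the only one of the 9 whose groups did not overlap, at 301 to 321 CPM in control and 323 to 350 CPM in knockdown libraries, a log2 difference of 0.11 (SE 0.12, edgeR adjusted p = 0.9998). Here and in the other comparisons, overlap was not counted over all genes, so groups without overlap describe these values only. The median log2 difference of the 9 genes was 0.11.

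In quiescent cells the gene that stood apart most was Tjp1, the ZO-1 scaffold. It lay at 598, 519 and 529 CPM in control and at 300, 425 and 393 CPM in knockdown libraries of experiments 5, 7 and 9. Every knockdown library was below every control library, and the step was largest in experiment 5, at -0.995 on the log2 scale, against -0.29 and -0.43 in experiments 7 and 9. The fitted log2 difference was -0.56 (SE 0.15, 0.679-fold, unadjusted p = 0.0032), which did not pass after adjustment by edgeR (adjusted p = 0.146, and 0.0610 with the block) and passed by DESeq2's Wald test (adjusted p = 0.0153). Leaving out 1 library at a time gave log2 differences of -0.66 to -0.43 and adjusted p-values of 0.123 to 0.389. In proliferating cells the Tjp1 differences were -0.14, -0.50 and -0.15 in the 3 experiments. The difference between states of the knockdown difference was -0.30 (SE 0.21, edgeR adjusted p = 0.9997). The summed epithelial markers were also higher in the quiescent knockdown libraries than in any other, as given above, but the list was mixed. Against quiescent control cells, 9 of the 11 tested markers had a positive log2 difference and 2 a negative one, with 0 called by edgeR. Krt8 had the largest mean, at 5903 CPM in control and 8909 CPM in knockdown cells. Cdh1 was lower, at 2311, 1714 and 1737 CPM in control and 1568, 1285 and 1058 CPM in knockdown libraries. The part of these markers in the Tjp1 difference was not tested.

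Cldn4 was higher with sh4 than with shNT in each experiment in quiescent cells, by 0.38, 0.58 and 0.40 on the log2 scale, but the groups overlapped (1520 to 2334 against 2205 to 3080 CPM) and the fitted difference of 0.45 (SE 0.25) did not pass (edgeR adjusted p = 0.526). Ocln was lower in each experiment by a narrow margin, at 102 to 110 CPM in knockdown against 113 to 120 CPM in control libraries, without overlap, and its log2 difference of -0.14 (SE 0.21) had an adjusted p of 0.864. For the others (Cldn1, Cldn3, Cldn7, Cldn8, Cldn12 and Cldn23) the quiescent groups overlapped and log2 differences ran from -0.17 (Cldn12) to 0.61 (Cldn8). In all, edgeR called 0 of 9 genes in this comparison, against 0.435% of all genes. Before adjustment 1 of 9 had a p under 0.05, beside 1489 of the 12406 genes, a share near that of the 9. With experiment as a block it called 0 of 9, against 3.55% of all genes, and DESeq2 called 1 of 9, Tjp1, against 3.21% of the genes to which it gave an adjusted p. The median log2 difference of the 9 genes was 0.03.

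Whether quiescence acted alike with either hairpin was tested as an interaction. Its estimates ran from -0.32 (Cldn23) to 0.13 (Cldn4) on the log2 scale, with standard errors of 0.16 (Cldn7) to 0.88 (Cldn8), and 0 of 9 genes were called by edgeR with or without the block or by DESeq2, with 0 at an unadjusted p under 0.05. Over all genes 0% were called with or without the block. For Cldn4 the estimate of 0.13 had an SE of 0.35 and for Cldn3 that of -0.02 an SE of 0.28, so each was smaller than its error.

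Set per kilobase of exon, which allows genes to be compared, the order of levels was led by Cldn4 in every group. In proliferating control cells it was Cldn4 at 426 ± 114 CPM per kb (SD, n = 3), Cldn3 at 230.0 ± 49.7, Cldn7 at 159 ± 1.90, Tjp1 at 68.9 ± 4.72, Cldn1 at 64.1 ± 2.15, Cldn12 at 38.9 ± 15.1, Ocln at 20.3 ± 6.21, Cldn23 at 7.75 ± 5.68 and Cldn8 at 0.289 ± 0.101 CPM per kb. Values of Tjp1 and Cldn1, of Cldn12 and Ocln, and of Ocln and Cldn23 overlapped between libraries, so these neighbours did not differ beyond their spread. With the longest transcript as the length, Cldn7 stood at 232 CPM per kb and so level with Cldn3. In quiescent control cells the lead of Cldn4 widened to 1017 ± 236 CPM per kb, with Cldn3 at 393 ± 86.6, and the order below was the same but for Cldn1 (79.4) and Tjp1 (70.3), which overlapped. In quiescent knockdown cells Cldn4 reached 1387 ± 268 and Cldn3 450 ± 30.6 CPM per kb, and Tjp1, at 47.7, did not overlap with Cldn1 at 81.1. In proliferating knockdown cells the order was Cldn4 (530 CPM per kb), Cldn3 (267), Cldn7 (164), Cldn1 (69.1), Tjp1 (57.6), Cldn12 (34.8), Ocln (21.2), Cldn23 (10.2) and Cldn8 (0.501). There too Cldn1 (66.7 to 72.3 CPM per kb) and Tjp1 (50.8 to 64.5) did not overlap.

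**Figure D3:**
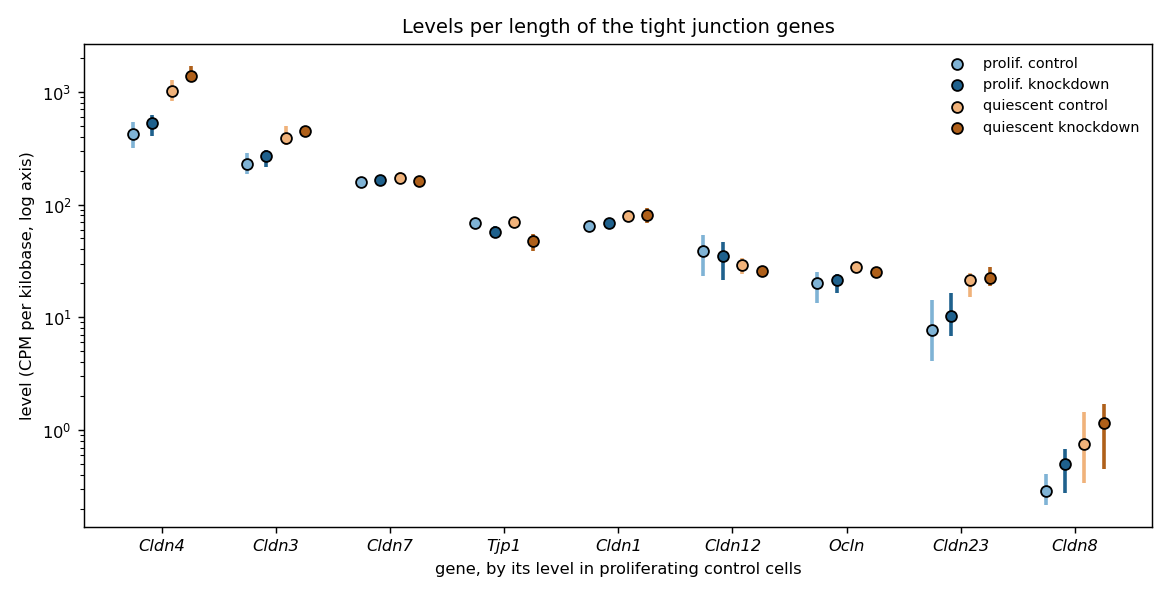
Level per kilobase of exon (CPM per kb, log axis) of the 9 genes in each of the 4 groups, with a point for the mean of 3 libraries and a bar from the lowest to the highest. Cldn4 leads every group, and Cldn8 lies lowest in every group (0.289 CPM per kb in proliferating control cells).

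The make-up of the claudin messages shifted with quiescence. Summed over the 7 claudins, the level was 926 ± 161 CPM per kb (SD, n = 3) in proliferating control, 1076 ± 157 in proliferating knockdown, 1714 ± 352 in quiescent control and 2130 ± 309 in quiescent knockdown cells. These 7 do not include Cldn6, with which the sum was 1064 ± 202 in proliferating control and 1830 ± 327 CPM per kb in quiescent control cells. Of the sum of the 7, Cldn4 made up 45.5% ± 4.37 in proliferating control and 59.1% ± 1.86 in quiescent control cells, and 49.0% ± 3.61 and 64.8% ± 2.97 in the corresponding knockdown cells. With Cldn6 in the sum, an alternative chosen after seeing the data, the share of Cldn4 was 39.7% ± 4.41 and 55.3% ± 2.88 in control and 44.2% ± 5.01 and 63.0% ± 3.58 in knockdown cells. The share of Cldn7 among the 7, whose level was steady, was 17.5% and 10.3% in proliferating and quiescent control cells and 15.6% and 7.73% in knockdown cells. Shares depend on the length used: by the longest transcript Cldn7 stood at 232 and not 159 CPM per kb in proliferating control cells. Shares by that length were not computed. The share of Cldn3 was 24.7% in proliferating and 22.9% in quiescent control cells, and 24.7% and 21.3% with sh4, lower in all quiescent than in all proliferating libraries of each hairpin group. The ratio of Cldn4 to Cldn3 was 1.91, 1.68 and 1.92 in proliferating control libraries and 2.69, 2.46 and 2.61 in quiescent control libraries, which did not overlap, and 1.98 ± 0.0863 and 3.06 ± 0.380 in proliferating and quiescent knockdown cells. Shares of a sum are tied to each other, so a smaller share of Cldn7 is no fall in its level.

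**Figure D4:**
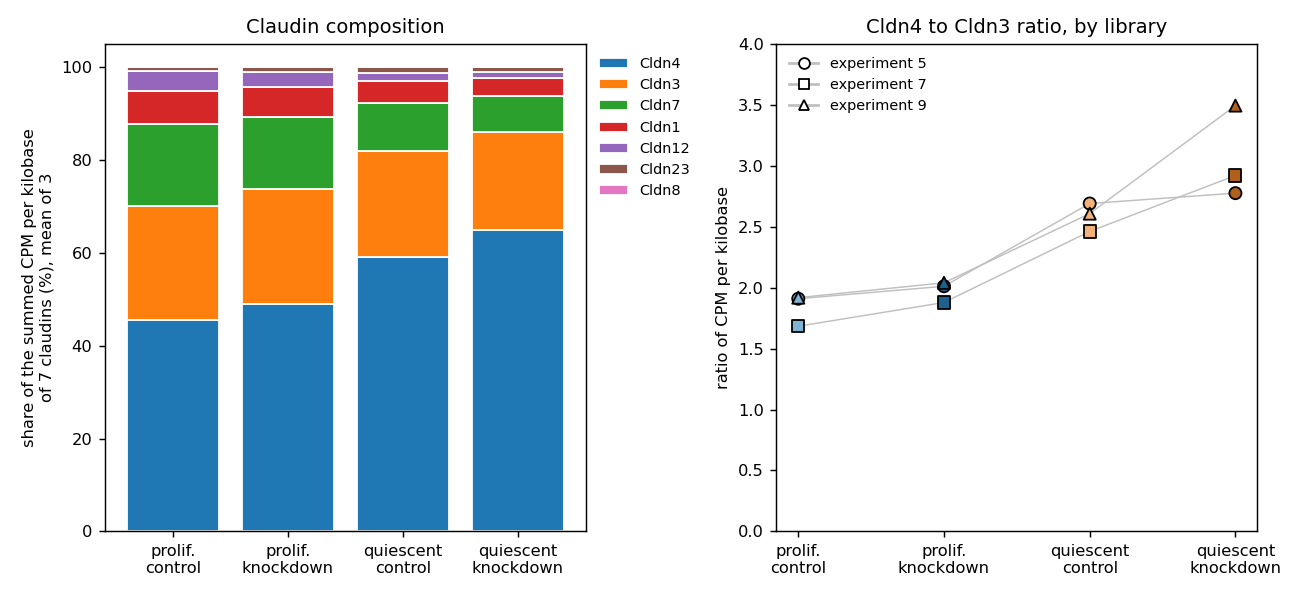
Share of each of the 7 claudin genes in their summed level (percent of CPM per kb, stacked to 100) in the 4 groups, as means of 3 libraries, and at right the ratio of Cldn4 to Cldn3 in each library. The Cldn4 band grows from 45.5% to 59.1% in control and from 49.0% to 64.8% in knockdown cells, and the ratio is higher in all quiescent libraries.

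How the 9 genes varied over all 12 libraries differed between them. State (proliferating or quiescent) held 80.0% of the variance of log2 CPM for Cldn4, 72.9% for Cldn3, 62.3% for Cldn23 and 59.5% for Cldn1. Tjp1 was the reverse, with 5.40% for state and 59.0% for hairpin, a hairpin share that stayed at or under 14.0% (Cldn8) in the other 8 genes. Experiment held 55.2% for Cldn12, and for Cldn7 57.0% was left to none of these factors. For Ocln the shares were 38.3% for state, 26.7% for experiment and 31.5% for the residual.

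By the root mean square difference of centred log2 CPM over the 12 libraries, the closest profile to Cldn4 was that of Idua (0.165), then Mppe1 (0.209). For Cldn3 the closest were Hint3 (0.142) and Nudt18 (0.147), and for Cldn23 Notch3 (0.223) and Tapbp (0.272). Ocln was closest to Zbtb42 (0.108) and to Marveld2 (0.112), the gene of tricellulin, which sits where corners of 3 cells meet. The closest to Tjp1 were Arhgap32 (0.0968) and Zfp507 (0.107), to Cldn12 Pak1ip1 (0.104) and Styk1 (0.122), to Cldn1 Zscan21 (0.0747) and Fbxw11 (0.0777), to Cldn7 Tmeff1 (0.0640) and Tbk1 (0.0700) and to Cldn8 Kcnk6 (0.299) and Sat2 (0.321). The genes nearest to the 9 were thus mostly outside the junction lists.

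Of the other tight junction genes, most did not pass the test with quiescence. The table had rows for 19 further claudins, of which 3 were tested (Cldn2, Cldn6 and a row named Cldn25), with 0 called in any comparison. The symbol Cldn25 is, per RefSeq, an older name of 2 genes, so the identity of that row is uncertain.

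Among 13 other membrane proteins of the junction, 10 were tested, and 3 were called higher and 0 lower in quiescent control cells, with a median log2 difference of 0.34. Of all genes tested 8.33% were called higher and 20.0% in either direction. Among the 3, Ildr1, an angulin of tricellular junctions, went from 62.9 ± 11.6 to 111 ± 11.9 CPM (SD, n = 3, log2 difference 0.82, edgeR adjusted p = 0.0028), and Marveld3, a relative of occludin, from 31.3 ± 7.38 to 53.9 ± 8.45 CPM (0.78, adjusted p = 0.0138). In knockdown cells 3 were called higher and 2 lower (median log2 difference 0.20), against 7.59% higher and 18.4% in all over all genes. Ildr1 and Marveld3 were higher there by 0.73 (adjusted p = 0.0056) and 0.71 (adjusted p = 0.0230) on the log2 scale. Epcam itself was lower by -0.65 (adjusted p = 0.0406) and Lsr, another angulin, by -0.38 (adjusted p = 0.0408). That count of 5 fell to 3 without the quiescent control library of experiment 5, to 2 without either library of experiment 5 or the proliferating one of experiment 7 with sh4, and to 1 without either sh4 library of experiment 9.

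Of 28 cytoplasmic plaque and polarity genes, all tested, 2 were called higher and 2 lower in quiescent control cells (median log2 difference 0.21). These 4 of 28 stand beside 20.0% of all genes called. The higher ones were Magi3, a scaffold with PDZ domains (0.92, edgeR adjusted p = 0.0251), and Mpp5, the PALS1 polarity adaptor (0.42, adjusted p = 0.0185). The lower ones were Mpdz, the multi-PDZ scaffold MUPP1 (-0.91, adjusted p = 0.0443), and Csda, the older name of Ybx3, which encodes the ZO-1 partner ZONAB (-0.97, adjusted p = 0.0288). With sh4, 1 was called higher, Prkcz, an atypical protein kinase C of the polarity complex (0.59, adjusted p = 0.0430), and 1 lower, Csda (-0.88, adjusted p = 0.0443). With the block 8 were higher and 2 lower in control cells and 5 and 2 in knockdown cells, against 35.3% and 33.0% of all genes called in the 2 arms. These small counts fell to 0 in control cells without the proliferating library of experiment 7 or 9 or the quiescent one of experiment 5 or 9. In knockdown cells they fell to 1 without the quiescent control library of experiment 5 or 9 and to 0 without the proliferating control library of experiment 7, the proliferating knockdown library of experiment 7 or 9 or any quiescent knockdown library.

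Among 14 transcription factors known to act on claudin or occludin genes, 11 were tested, and 2 were called higher and 1 lower with quiescence in either hairpin group, against 20.0% of all genes called in control and 18.4% in knockdown cells. Elf3, an epithelial ETS factor, went from 216, 108 and 77.3 CPM in proliferating control to 394, 192 and 379 CPM in quiescent control cells, which overlapped (log2 difference 1.27, edgeR adjusted p = 0.0443), and by 1.37 with sh4 (adjusted p = 0.0352). Grhl1, a grainyhead-like activator of epithelial genes, went from 11.6 ± 1.60 to 25.1 ± 4.64 CPM (SD, n = 3, log2 difference 1.12, adjusted p = 0.0028), and by 0.85 with sh4 (adjusted p = 0.0131). Snai2, the Slug repressor that binds E-boxes, went from 8.98, 15.8 and 32.0 CPM to 3.17, 3.73 and 2.03 CPM, which did not overlap, a log2 difference of -2.66 (adjusted p = 0.0026), and by -2.98 with sh4 (adjusted p = 0.0023). Trp63 was at 0 in every library, and Snai1 and Zeb1 were too low to test. The sh4 count of 3 fell to 1 without the proliferating library of experiment 9 or the quiescent library of experiment 5.

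Stag2 knockdown gave 0 edgeR calls in these 4 lists in either state. Over all genes 0.0242% were called in proliferating and 0.435% in quiescent cells. At an unadjusted p under 0.05 there were 3 membrane proteins, 0 plaque genes, 1 transcription factor and 0 other claudins in proliferating cells, and 3, 4, 2 and 0 in quiescent cells. Over all 12406 genes there were 228 and 1489 at that level. With experiment as a block, 2 of 28 plaque genes were called lower in quiescent knockdown cells, Pard6b, a subunit of the Par polarity complex (log2 difference -0.61 without and edgeR adjusted p = 0.0344 with the block), and Arhgef18 (-0.52, adjusted p = 0.0316 with the block). With the block, 3.55% of all genes were called in that comparison. DESeq2 called 0 genes of these lists in proliferating cells. In quiescent cells it called 3, beside 3.21% of all genes to which it gave an adjusted p: Jam2, a junctional adhesion molecule, higher by 1.52 on the log2 scale (adjusted p = 0.00655), Arhgef18 lower by -0.52 (adjusted p = 0.0352) and Snai2 lower by -1.64 (adjusted p = 0.0368). These are named because they passed there, after their values were seen.

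**Figure D5:**
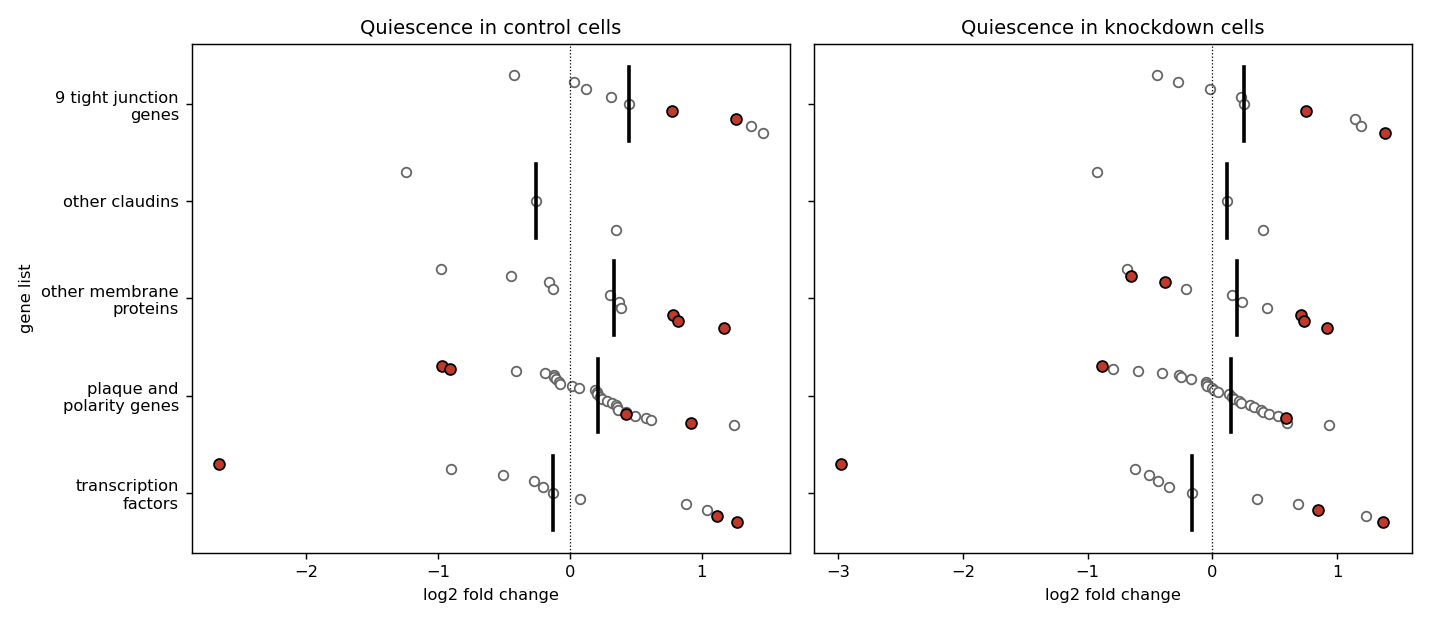
Log2 quiescence difference in control and in knockdown cells for each tested gene of the 9 and of the other junction gene lists, with filled points for an edgeR adjusted p under 0.05 and a vertical bar for each list's median. Cldn4 is among the highest values (1.26 and 1.39), and Snai2 is the lowest (-2.66 and -2.98).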

How the data were processed

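The values are raw counts as the authors deposited them, not normalized, in 1 table of 23337 gene symbols by 12 libraries, of which 5762 were at 0 in every library and 0 were ERCC spike-in sequences. Per the labels' protocols, polyadenylated RNA was made into libraries with a stranded kit, after ERCC RNA had been added. Per the submitters' processing notes, Bowtie, TopHat, HTSeq and DESeq2 were used with build mm10. Their versions, the gene models and whether counting was strand-aware are not given in the sources used here, so reads of overlapping genes on opposite strands may be shared.

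The counts of all 12 libraries were fitted in edgeR 4.0.16 (R 4.3.3) with 4 group means: filterByExpr with a minimum count of 10 (12406 genes tested), trimmed mean of M values scaling, quasi-likelihood F tests and Benjamini-Hochberg adjustment over all genes tested, with a threshold of 0.05. The 5 comparisons were knockdown in each state, quiescence with each hairpin, and their interaction. CPM use the scaled totals of the fit, log2 CPM a prior count of 2, and the SE of a log2 difference is its size over the square root of F. The labels number the experiments as batches, but the sources used here do not say whether the authors' test included them, so the reported fit has no block and the fit with experiment as a block is given as an alternative. Libraries of the same experiment deviated from their group means together (mean r 0.526 over 18 pairs, 0.225 to 0.789, against -0.259 over 36 pairs of different experiments). No replicate pair was identical, and chi-square per degree of freedom between replicates was 36.6 to 99.7. Alternatives were the block, median-of-ratios size factors, DESeq2 1.42.0, a filter at a mean count of 50, no filter, only the libraries of a comparison, each library left out, and the longest transcript as the length. The fit was also run on simulated counts, which held no experiment effect and so do not test the fit under one.

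The text names Stag2, the 9 genes, from each other list and comparison up to 4 genes in each direction with the largest differences among those called with 1 direction in all 3 experiments, and the 2 closest profiles of each of the 9. Of the genes that this rule names, 1 is not reported here. The genes and lists were chosen with earlier results of these data known, so their counts are descriptions.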

Additional observations from a re-analysis of the deposited data

How the results depend on the processing

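The number of the 9 genes called for quiescence in control cells was 2 in the fit reported, 5 with experiment as a replicate block, 4 by DESeq2, 1 with only the 6 control libraries, and 3 with size factors, with no filter or with a mean count of at least 50, where Cldn23 was the added gene (edgeR adjusted p = 0.0477 to 0.0494). Leaving out 1 library at a time gave 1 to 3 calls in control and 1 to 3 in knockdown cells. For quiescence in control cells, edgeR called 20.0% of all genes in the fit reported and 35.3% with the block. That share is not given for this comparison's other settings. Nor is it given for fits that left out a library, here or in the other lists. DESeq2 called 1 gene (Tjp1) for knockdown in quiescent cells, where edgeR called 0 under every other setting. Among the 9 genes the replicate block changed no call other than those of Cldn1, Cldn23 and Ocln. Directions that turned were all of differences that did not pass. With the replicate block the interaction turned to 0.0013 for Cldn3 and 0.0070 for Cldn12. Leaving out libraries turned knockdown differences in proliferating cells of Cldn7 (-0.0042 to 0.11), Cldn12 (-0.44 to 0.14), Cldn23 (-0.15 to 1.19) and Ocln (-0.17 to 0.24), and in quiescent cells of Cldn1 (-0.073 to 0.13) and Cldn23 (-0.13 to 0.19). It turned quiescence differences of Tjp1 in control (-0.028 to 0.077) and Cldn7 in knockdown cells (-0.085 to 0.031). Interaction estimates ran from -0.18 to 0.026 for Cldn1, -0.20 to 0.18 for Cldn3, -0.088 to 0.33 for Cldn4, -0.58 to 0.72 for Cldn8, -0.31 to 0.26 for Cldn12, -1.11 to 0.22 for Cldn23 and -0.38 to 0.031 for Ocln. The quiescence difference of Cldn4 kept its call throughout, at 1.05 to 1.47 in control and 1.22 to 1.52 in knockdown cells. The causes were not tested, except that fewer libraries entered the fits that left some out. With 9 to 69 counts per library, Cldn8 could not be tested at a mean count of 50 and was limited by depth. The interaction needs all 4 groups, so no fit to fewer groups was made for it.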

Other observations

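Cldn6, a claudin of embryonic epithelia, was among the more abundant claudins in these cells although it is not among the 9 genes. It stood at 349, 250 and 115 CPM in proliferating control cells (experiments 5, 7 and 9), 304, 220 and 65.6 CPM in proliferating knockdown cells, 239, 213 and 147 CPM in quiescent control cells and 101, 142 and 67.6 CPM in quiescent knockdown cells. In quiescent cells all 3 knockdown libraries lay below all 3 control libraries, with a log2 difference of -0.95 (SE 0.51) that did not pass (edgeR adjusted p = 0.519, and 0.0743 with experiment as a block).

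Jam2, which encodes a junctional adhesion molecule, was higher with the hairpin against Stag2 in every experiment. It stood at 101, 123 and 89.0 CPM in proliferating control and 125, 197 and 411 CPM in proliferating knockdown cells, and at 58.3, 47.9 and 53.1 CPM in quiescent control and 86.3, 204 and 165 CPM in quiescent knockdown cells. The groups did not overlap in either state, but neither difference passed by edgeR. In proliferating cells it was 1.23 on the log2 scale (edgeR adjusted p = 0.9998, and 0.948 with the block), with 0.31 and 0.68 in experiments 5 and 7 and 2.21 in experiment 9. In quiescent cells it was 1.52 (edgeR adjusted p = 0.140, and 0.0549 with the block), and it passed there by DESeq2's Wald test (adjusted p = 0.00655). Both genes were picked after their values were seen.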
